A study of Mus musculus with 10 samples.

Results

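Ribosome biogenesis and nucleolar genes encode the proteins that make, trim, modify and assemble ribosomal RNA into ribosomal subunits. A list of 44 such genes was followed here, and members were the listed genes that an array probe set named without any other symbol. By that rule 43 of the 44 genes were measured, out of 19937 genes on the array, and Noc2l was not analysed here. The 43 genes were represented by 46 probe sets.

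The samples were splenic B cells of CBAxC57BL/6J mice, sorted for the surface proteins B220 and CD22 and hybridised to Affymetrix Mouse Gene 1.0 ST arrays. Wild-type mice gave 3 arrays. Mice with the intact transgene Sca1-Bcl6(floxed), in which a loxP-flanked mouse Bcl6-IRES-eGFP cassette sits in a pLy6 (Sca1) vector, gave another 3 and are called floxed. Their Sca1-Bcl6(delta) descendants from a cross with mb1-Cre mice, whose Cre is driven by the B cell gene Cd79a, gave 4 and are called delta. The study made 2 transgenic lines, and the labels do not say which line, age or animal an array stands for. Every p-value here therefore rests on spread between arrays, which may be partly technical.

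Ribosome production starts in the nucleolus, where RNA polymerase I transcribes a long precursor of the ribosomal RNAs. Small nucleolar ribonucleoprotein particles (snoRNPs) modify this precursor, and separate sets of assembly factors then build the small and the large subunit. In B cells this machinery is low at rest and is induced with growth after antigen or mitogen signals, and many of its genes are known targets of the transcription factor MYC. Bcl6, carried by the transgene, is a transcriptional repressor best known for its part in germinal centre B cells.

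Median intensity per array lay between 139 and 145. Arrays of the same group correlated at 0.993 to 0.997 across genes, and arrays of different groups at 0.989 to 0.996. Of the 6 measured B cell defining markers, all had log2 levels of at least 12.48 in every array, namely Ms4a1, Cd79a, Cd79b, Cd22, Ptprc and Pax5. Cd79a, the gene that mb1-Cre is placed in, was at -0.48 in delta against wild-type (SE 0.06, limma adjusted p = 0.0427), and the other B cell markers did not pass. That call is lost, with 0 genes called, in several other fits. Among them are those without wild-type 1, wild-type 2, floxed 1, floxed 3 or delta 3. So are those with every probe set kept and with only the 2 groups in the fit. In limma, 1240 to 1756 genes had an unadjusted p under 0.05 when an array was left out, 1755 with every probe set and 1744 with the 2 groups. Bcl6 itself had log2 levels of 9.80 to 10.48 in wild-type, 9.80 to 9.96 in floxed and 9.56 to 9.83 in delta arrays, with no change past the threshold (limma adjusted p = 0.688 for floxed and 0.578 for delta, each against wild-type, and 0.870 between the transgenic groups). Judged by Xist and Y-linked genes, 0 of 3 wild-type, 3 of 3 floxed and 1 of 4 delta arrays (delta 1) had a male pattern. Sex and genotype thus cannot be told apart in floxed against wild-type. In delta against floxed they largely cannot either, since delta 1 is the only delta array of male pattern. In bulk RNA, a lower level cannot be separated into fewer cells of a type and less RNA per cell.

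Promoter sequence was examined first, as a feature that the choice of members did not use. RefSeq windows (GRCm38.p6) from 250 bases before to 50 bases after each gene's start were found for 38 of the 44 genes, 42 windows in all. The MYC-type E-box CACGTG, which reads the same on both strands, stood in 10 of 42 member windows (23.8%) and in 7.15% of all 32851 windows. The ETS motif CCGGAAG, on either strand, stood in 14 (33.3%) and in 8.86% of all windows. CTCGCGA was found in 5 (11.9%, against 1.93%), and GCATGCG, the core of the motif of the factor NRF1, in 2 (4.76%, against 3.58%), each on either strand. Member windows also had a median GC content of 58.2%, above the 52.7% of all windows, and GC-rich motifs are more frequent in GC-rich sequence. A match describes letters in a window and not binding.

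The 4 members with an E-box and the smallest p in floxed against wild-type are shown with 30 bases around it, since they let the element be seen in genes whose levels are described next. All 4 matches lie after the start, at base 18 in Wdr43 (chr17:71616220-71616249, plus strand), base 29 in Ltv1 (chr10:13193092-13193121, minus strand), base 16 in Utp4 (chr8:106893643-106893672, plus strand) and base 41 in Mybbp1a (chr11:72441347-72441376, plus strand). Capitals mark CACGTG, and each stretch runs 5′ to 3′ on the gene's strand.
Wdr43: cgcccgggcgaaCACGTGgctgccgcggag
Ltv1: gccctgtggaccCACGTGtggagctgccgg
Utp4: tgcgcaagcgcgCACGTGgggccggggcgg
Mybbp1a: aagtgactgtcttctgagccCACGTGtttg

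In Ltv1 and Utp4 the 250 bases before the start also hold the ETS motif, 2 matches each, which begin 98 bases before the start in Ltv1 (chr10:13193138-13193387, minus strand) and 43 bases before it in Utp4 (chr8:106893390-106893639, plus strand). Capitals mark CCGGAAG or its reverse complement CTTCCGG.
Ltv1: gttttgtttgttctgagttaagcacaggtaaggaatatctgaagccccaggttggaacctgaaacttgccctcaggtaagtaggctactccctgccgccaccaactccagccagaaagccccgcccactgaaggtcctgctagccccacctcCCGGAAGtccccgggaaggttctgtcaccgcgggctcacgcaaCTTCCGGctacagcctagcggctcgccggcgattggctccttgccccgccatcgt
Utp4: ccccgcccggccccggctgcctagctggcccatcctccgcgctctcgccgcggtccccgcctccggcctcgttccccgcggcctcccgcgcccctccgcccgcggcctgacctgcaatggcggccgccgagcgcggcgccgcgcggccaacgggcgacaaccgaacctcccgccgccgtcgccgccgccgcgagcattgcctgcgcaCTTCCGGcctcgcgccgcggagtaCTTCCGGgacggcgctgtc
The 10 measured genes with CACGTG had a median log2 change of 0.15 in floxed against wild-type (range 0.048 to 0.20), and the 27 with a window but no CACGTG had 0.11 (range -0.12 to 0.26). These ranges overlap almost wholly, and no test was made of the difference.

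As a whole the module was slightly lower in 2 of the 3 wild-type arrays than in the floxed and delta arrays, and wild-type 3 was not. Each gene's log2 level was set against its own mean over the 10 arrays, and these deviations were averaged over the 43 genes. The mean deviation was -0.090, -0.177 and 0.041 in wild-type 1, 2 and 3, -0.015, 0.078 and 0.075 in floxed 1, 2 and 3, and 0.016, 0.075, 0.048 and -0.050 in delta 1, 2, 3 and 4. Wild-type 1 and 2 lay below every other array, while wild-type 3 lay above floxed 1, delta 1 and delta 4, so the groups overlapped. The wild-type mean was -0.075 ± 0.110 (SD, n = 3). The floxed mean was 0.046 ± 0.053 (SD, n = 3), and the delta mean was 0.022 ± 0.054 (SD, n = 4).

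**Figure D1:**
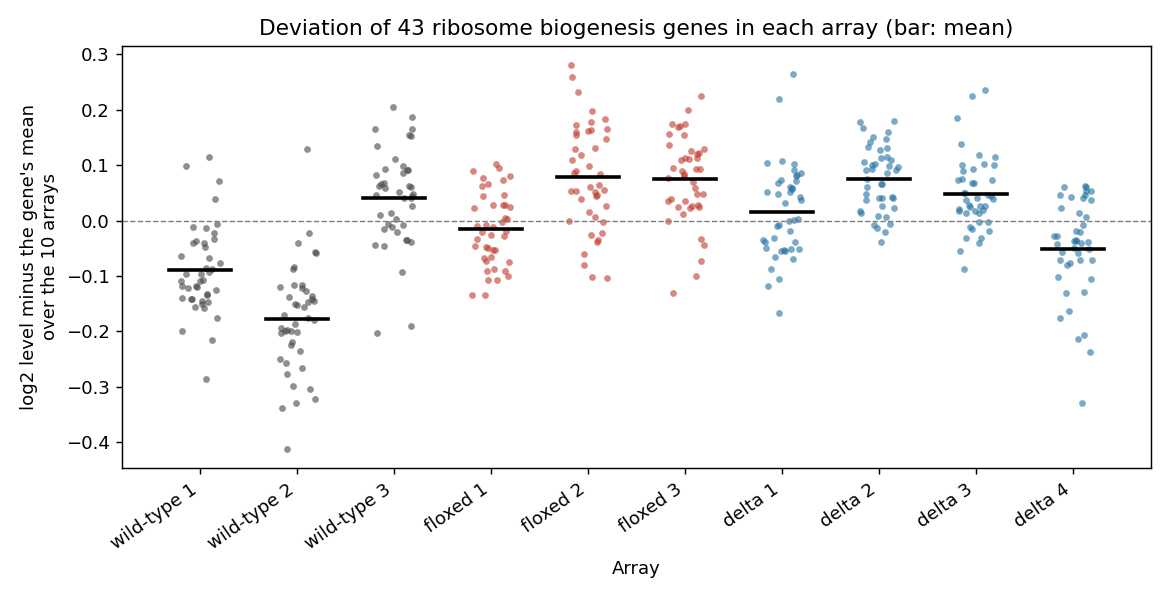
Each point is 1 of the 43 measured genes, plotted as its log2 level minus its own mean over the 10 arrays (vertical axis, log2) in each array (horizontal axis, coloured by group), with a bar at the mean. The bars of wild-type 1 and 2, at -0.090 and -0.177, lie below all others, and that of wild-type 3, at 0.041, lies among the floxed and delta arrays.

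The mean level of the module was thus 0.12 higher on the log2 scale in floxed than in wild-type and 0.097 higher in delta than in wild-type, whereas the 3 wild-type arrays alone spanned 0.22. Without wild-type 2 these differences were 0.070 and 0.046, and without wild-type 3 they were 0.18 and 0.16. Delta and floxed differed by -0.023. The same mean over all 19937 genes lay between -0.019 and 0.023 in every array. Within an array the genes scattered around the module mean with an SD of 0.058 (delta 2) to 0.098 (wild-type 2). In wild-type 2, 42 of the 43 genes were below their own mean and 28 of 43 (65.1%) had their lowest level of the 10 arrays, against 11.1% of all genes. In wild-type 3, 30 of 43 were above their own mean. Wild-type 3 exceeded wild-type 2 in 40 of 43 members, with a median difference of 0.23, and in 53.8% of all genes.

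Floxed against wild-type asked whether B cells of mice with the intact transgene differ in this machinery. None of the 43 members passed an adjusted p of 0.05 in limma, where 110 of all genes (0.552%) did, and the smallest adjusted p of a member was 0.111. The estimates leaned to one side, with 41 of 43 above 0, where 41.9% of all genes were, and a median of 0.12 against -0.024 for all genes. At an unadjusted p under 0.05, 8 members (18.6%) were higher and 0 lower, where 6.14% and 6.63% of all genes were. All arrays of one group lay beyond all of the other in 8 members on the higher side, where 7.6% of all genes did, and in 1 on the lower side, where 9.13% did. Among genes with a mean log2 level of at least 6, which includes all 43 members, the share above 0 was 43.4%, the unadjusted p shares were 7.38% higher and 6.83% lower, and the non-overlap shares 8.94% and 9.39%.

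These counts turned on single arrays. The 8 members with an unadjusted p under 0.05 in floxed against wild-type became 2 without wild-type 2, 21 without wild-type 3, 3 without floxed 2 and 4 without floxed 3. The median log2 change became 0.078 without wild-type 2 and 0.18 without wild-type 3. When floxed 2 stood for its group alone the median was 0.16, with 38 above 0. A fit with sex as a covariate takes the sex effect from delta 1 against the other delta arrays alone, and so adds no separate evidence on sex. The 95% confidence intervals (CI) of all 43 changes lay between -0.32 and 0.51, and their standard errors (SE) between 0.057 and 0.13.

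Delta against wild-type asked the same of mice in which mb1-Cre had acted on the transgene. It shares its wild-type arrays with the first comparison. Here too 0 of 43 members passed in limma, where 15 of all genes (0.0752%) did, and the smallest adjusted p of a member was 0.480. Of the members 39 were above 0, where 43.6% of all genes were, with a median of 0.10 against -0.014 for all genes. At an unadjusted p under 0.05, 7 members (16.3%) were higher and 0 lower, where 3.46% and 4.44% of all genes were. Groups did not overlap in 5 members on the higher side (3.75% of all genes) and in 0 on the lower side (5.5%). Among genes with a mean log2 level of at least 6 the share above 0 was 44.7%, the unadjusted p shares were 4.06% higher and 4.4% lower, and the non-overlap shares 4.32% and 5.71%. The 7 became 3 without wild-type 1, 1 (on the lower side) without wild-type 2, 20 without wild-type 3 and 4 without delta 3. The median became 0.062 without wild-type 2 and 0.16 without wild-type 3.

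Delta against floxed, the direct comparison of the 2 transgenic groups, gave a median of -0.011, with 17 members above 0 and 26 below, where 52.1% of all genes were above 0. In limma 0 of 43 members passed, where 1 of all genes (0.00502%) did, 0 had an unadjusted p under 0.05, where 3.22% of all genes were higher and 3.2% lower at that level, and the smallest adjusted p was 0.787. Groups did not overlap in 3 members, Ncl, Npm1 and Rrp9, all lower in delta, where 3.61% of all genes were lower and 3.36% higher in that way. Among genes with a mean log2 level of at least 6 the share above 0 was 51.4%, the unadjusted p shares were 3.1% higher and 3.27% lower, and the non-overlap shares 3.42% and 3.97%. The 95% CI of the 43 changes lay between -0.40 and 0.32, so single genes could differ by as much. Among the delta arrays only delta 1 shares the male pattern of the floxed arrays, so sex is largely confounded with this comparison.

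**Figure D2:**
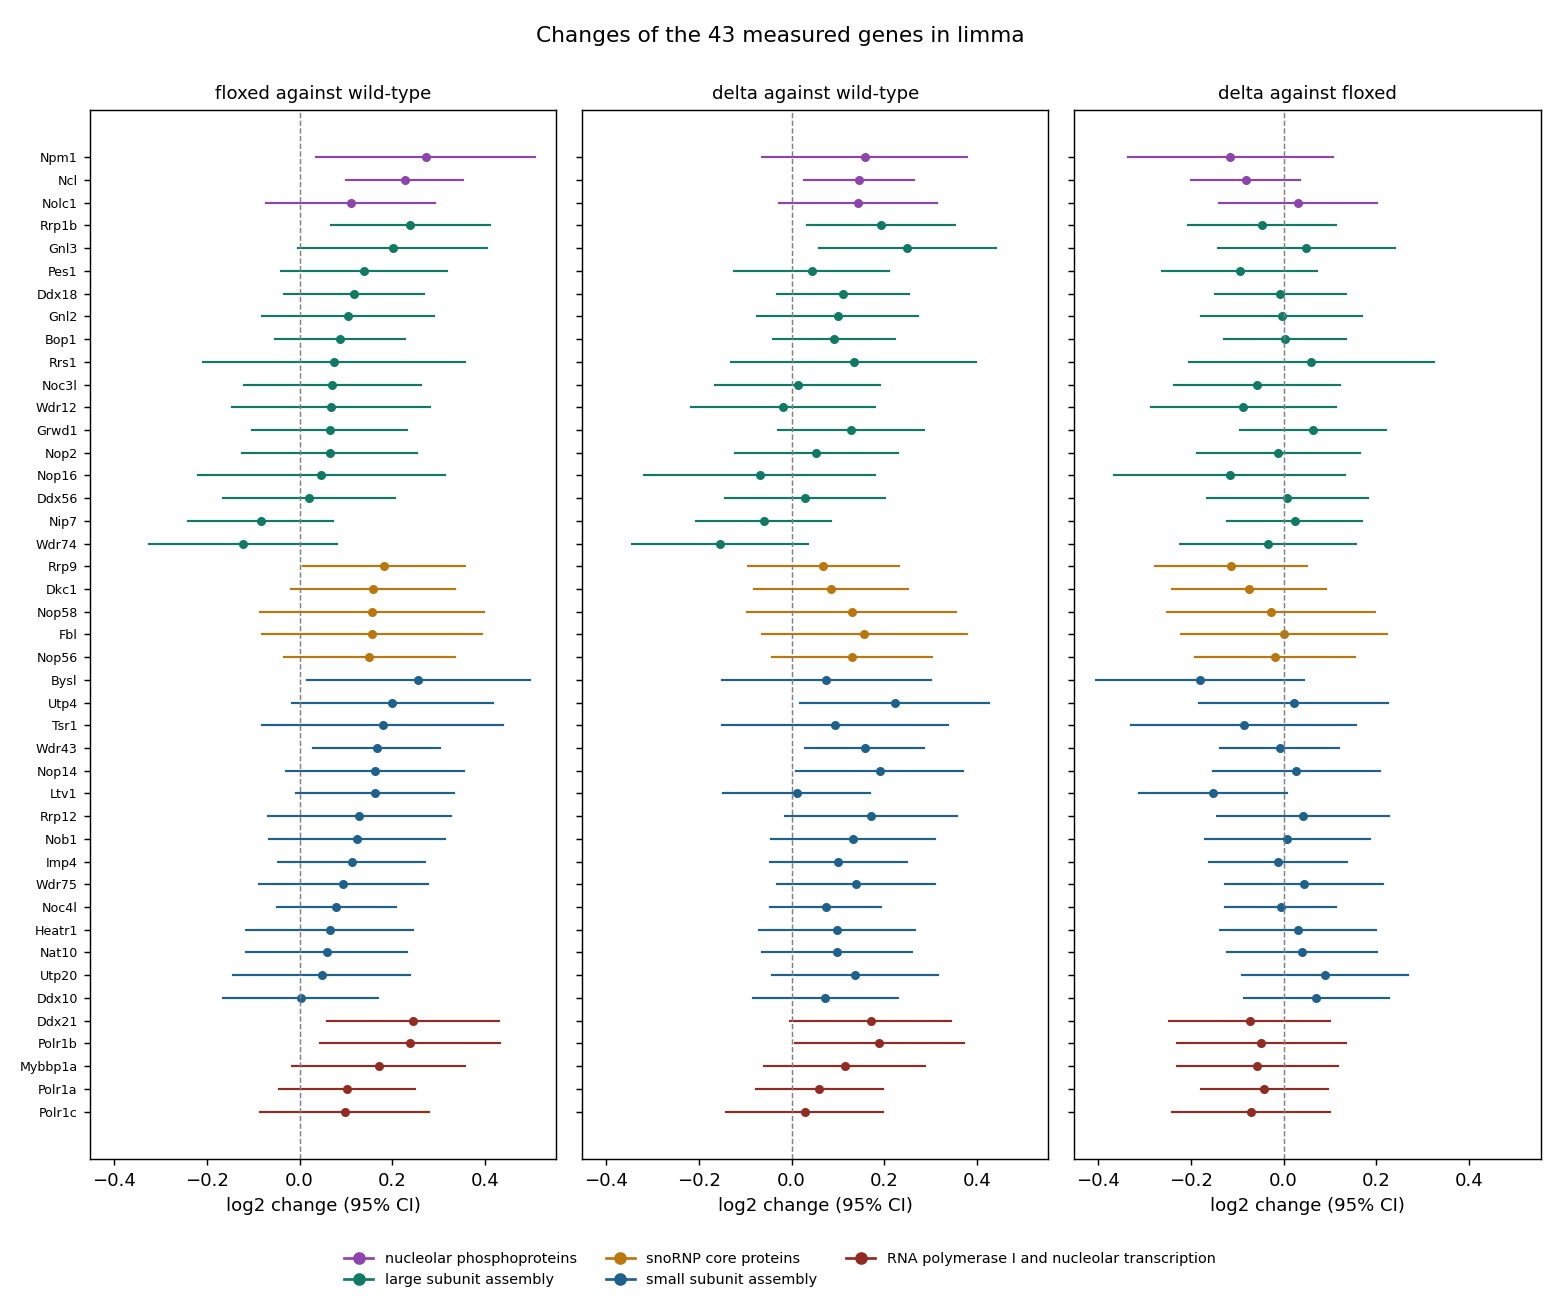
Points are log2 changes of the 43 measured genes from limma and lines their 95% CI, in 3 panels for the 3 comparisons, with genes coloured and ordered by role. In the first 2 panels 41 and 39 points lie above 0, most intervals cross 0, and in the last panel 17 points lie above 0.

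The nucleolar phosphoproteins Ncl, Npm1 and Nolc1 had the largest mean difference of the role groups, 0.20 in floxed against wild-type and 0.15 in delta against wild-type. Ncl encodes nucleolin, an abundant nucleolar protein that binds the precursor RNA and takes part in its transcription and processing. Its log2 level (probe set 10356312) was 11.37, 11.26 and 11.37 in wild-type 1, 2 and 3, 11.54, 11.58 and 11.57 in floxed 1, 2 and 3, and 11.44, 11.49, 11.49 and 11.50 in delta 1, 2, 3 and 4. The 3 groups did not overlap, with floxed highest, delta between and wild-type lowest. Ncl was 1.17-fold higher in floxed than in wild-type (log2 0.23, SE 0.06, 95% CI 0.10 to 0.35, limma adjusted p = 0.111) and 1.11-fold higher in delta than in wild-type (log2 0.14, SE 0.05, adjusted p = 0.506). In delta against floxed it was at -0.08 (95% CI -0.20 to 0.036, adjusted p = 0.847). None of these passed the threshold, and over all alternatives tried the adjusted p in floxed against wild-type stayed at or above 0.0641.

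Npm1, the nucleolar chaperone nucleophosmin, had log2 levels of 10.62, 10.32 and 10.81 in wild-type, 10.80, 10.81 and 10.95 in floxed, and 10.66, 10.79, 10.72 and 10.78 in delta arrays. Wild-type 3 reached the floxed range, and its change from wild-type to floxed was 0.27 (SE 0.11, adjusted p = 0.318), the largest estimate among the members. A further 3 probe sets name Npm1 together with Gm15484 and were left out by the rule. Nolc1, a chaperone of snoRNP assembly, was at 0.11 in floxed against wild-type and 0.14 in delta against wild-type (adjusted p = 0.623 and 0.723).

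Transcription by RNA polymerase I was represented by its subunits Polr1a, Polr1b and Polr1c, by Mybbp1a, a nucleolar regulator of transcription, and by Ddx21, an RNA helicase that acts in transcription and processing of the precursor. All 5 were above 0 in floxed against wild-type, at 0.097 to 0.24, and all 5 below 0 in delta against floxed, at -0.073 to -0.042. Ddx21 had log2 levels of 10.31, 10.05 and 10.38 in wild-type 1, 2 and 3, 10.49, 10.56 and 10.44 in floxed 1, 2 and 3, and 10.47, 10.40, 10.46 and 10.35 in delta 1, 2, 3 and 4. Every floxed array exceeded every wild-type array, and delta 4 fell below wild-type 3. The change of Ddx21 was 0.24 in floxed against wild-type (SE 0.08, limma adjusted p = 0.246) and 0.17 for delta (SE 0.08, adjusted p = 0.643).

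Polr1b, the second-largest subunit of the polymerase, was at 9.28, 9.11 and 9.11 in wild-type, 9.31, 9.47 and 9.44 in floxed and 9.27, 9.36, 9.55 and 9.26 in delta arrays. Floxed arrays lay above wild-type arrays without overlap, though floxed 1 and wild-type 1 were 0.03 apart after rounding. By limma it was at 0.24 in floxed (SE 0.09, adjusted p = 0.286) and 0.19 in delta (SE 0.08, adjusted p = 0.615), each against wild-type. The largest subunit gene Polr1a and the subunit gene Polr1c, shared with RNA polymerase III, were at 0.10 and 0.097 in floxed against wild-type. Mybbp1a was at 0.17 (adjusted p = 0.433), with floxed levels above all wild-type levels.

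The snoRNP group comprised the methyltransferase fibrillarin (Fbl) and its partners Nop56 and Nop58 of box C/D particles, the pseudouridine synthase dyskerin (Dkc1) of box H/ACA particles, and Rrp9, a protein of the U3 particle. Its 5 changes were close together in floxed against wild-type, at 0.15 to 0.18, and spread from 0.068 to 0.16 in delta against wild-type. Nop56 had log2 levels of 10.97, 10.90 and 11.12 in wild-type 1, 2 and 3, 11.14, 11.24 and 11.06 in floxed 1, 2 and 3, and 11.00, 11.22, 11.21 and 11.07 in delta 1, 2, 3 and 4. Groups overlapped, and the changes were 0.15 and 0.13 against wild-type (SE 0.08 each, adjusted p = 0.488 and 0.760).

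Rrp9 was at 8.26, 8.21 and 8.50 in wild-type, 8.45, 8.56 and 8.50 in floxed, and 8.36, 8.44, 8.42 and 8.33 in delta arrays. Every delta array of Rrp9 lay below every floxed array, and wild-type overlapped both groups. The change was 0.18 in floxed against wild-type (SE 0.08, limma adjusted p = 0.370) and -0.11 in delta against floxed (SE 0.07, adjusted p = 0.847). Within wild-type the snoRNP group had the widest spread of the role groups, with mean deviations of -0.140, -0.237 and 0.096 in wild-type 1, 2 and 3.

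Small subunit assembly held 15 genes, from components of the early processome (Heatr1, Utp4, Wdr43, Wdr75, Utp20, Imp4, Nop14, Noc4l, Ddx10) and the RNA acetyltransferase Nat10 to later factors (Rrp12, Bysl, Tsr1, Nob1, Ltv1). All 15 were above 0 in both comparisons against wild-type, with medians of 0.12 and 0.10. Wdr43, a processome protein that links precursor transcription to processing, had log2 levels of 10.50, 10.43 and 10.58 in wild-type 1, 2 and 3, 10.62, 10.75 and 10.64 in floxed 1, 2 and 3, and 10.69, 10.66, 10.66 and 10.64 in delta 1, 2, 3 and 4. All 7 floxed and delta arrays exceeded the 3 wild-type arrays. The changes of Wdr43 were 0.17 and 0.16 (SE 0.06 each, limma adjusted p = 0.290 and 0.505).

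Utp4 belongs to the same early subcomplex, and its levels split the wild-type group, at 9.30, 9.33 and 9.69, against 9.54, 9.75 and 9.62 in floxed and 9.65, 9.74, 9.64 and 9.63 in delta arrays. Wild-type 1 and 2 were below every other array, and wild-type 3 was not. The change in delta against wild-type was 0.22 (SE 0.09, limma adjusted p = 0.581). It was 0.15 without wild-type 1, 0.17 without wild-type 2 and 0.35 without wild-type 3.

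The late factors Ltv1 and Bysl had the smallest p-values of the members between the transgenic groups, while Tsr1, Rrp12 and Nob1 were at -0.086, 0.042 and 0.0084. Ltv1, which is released from the precursor particle late in its maturation, was at 8.68, 8.59 and 8.73 in wild-type, 8.80, 8.83 and 8.86 in floxed, and 8.80, 8.70, 8.70 and 8.51 in delta arrays. Floxed arrays stood above wild-type, and delta 1, of male pattern, met floxed 1 at 8.80. The change of Ltv1 in delta against floxed was -0.15 (SE 0.07, limma adjusted p = 0.787). Bysl, the assembly factor bystin, was at 7.86, 7.55 and 7.89 in wild-type, 7.87, 8.15 and 8.04 in floxed, and 7.87, 7.87, 7.97 and 7.67 in delta arrays. Bysl stood 0.26 higher in floxed than in wild-type (SE 0.11, adjusted p = 0.356) and at -0.18 in delta against floxed (SE 0.10, adjusted p = 0.843), with overlapping groups in both.

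Large subunit assembly, with 15 measured genes, had the smallest difference of the role groups, at a mean of 0.073 in floxed against wild-type and 0.056 in delta against wild-type. It held all members with estimates below 0. In floxed against wild-type these were Wdr74 (-0.12, adjusted p = 0.628) and Nip7 (-0.08, adjusted p = 0.669), both factors of large subunit maturation, joined in delta against wild-type by Nop16 and Wdr12. Nip7 was at 8.13, 8.22 and 8.07 in wild-type and 8.07, 8.05 and 8.05 in floxed arrays, so that its non-overlap rests on less than 0.01 between wild-type 3 and floxed 1.

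Rrp1b, a nucleolar protein of large subunit biogenesis, had log2 levels of 7.76, 7.73 and 7.95 in wild-type 1, 2 and 3, 7.94, 8.06 and 8.16 in floxed 1, 2 and 3, and 8.05, 7.97, 7.98 and 8.02 in delta 1, 2, 3 and 4. All delta arrays exceeded wild-type, while floxed 1 lay just below wild-type 3. The changes of Rrp1b were 0.24 (SE 0.08, limma adjusted p = 0.219) and 0.19 (SE 0.07, adjusted p = 0.516) against wild-type. Gnl3, the nucleolar GTPase nucleostemin, was at 9.09, 8.94 and 9.20 in wild-type, 9.15, 9.33 and 9.36 in floxed, and 9.50, 9.25, 9.25 and 9.30 in delta arrays. Delta arrays lay above wild-type, with delta 1 highest, and the change was 0.25 (SE 0.09, adjusted p = 0.480), or 0.19 without delta 1.

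Bop1, Pes1 and Wdr12 form the PeBoW complex of large subunit assembly. Pes1 was at 9.28, 9.34 and 9.49 in wild-type, 9.52, 9.41 and 9.60 in floxed, and 9.47, 9.50, 9.39 and 9.30 in delta arrays, with overlap in every comparison and -0.09 in delta against floxed (SE 0.08, limma adjusted p = 0.865). Bop1 was at 0.09 in both comparisons against wild-type. Rrs1, a factor that brings 5S ribosomal RNA into the large subunit, had the dimmest probe set and no pattern by group, at 6.75, 6.51 and 6.46 in wild-type, 6.52, 6.91 and 6.52 in floxed, and 6.69, 6.83, 6.84 and 6.48 in delta arrays.

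**Figure D3:**
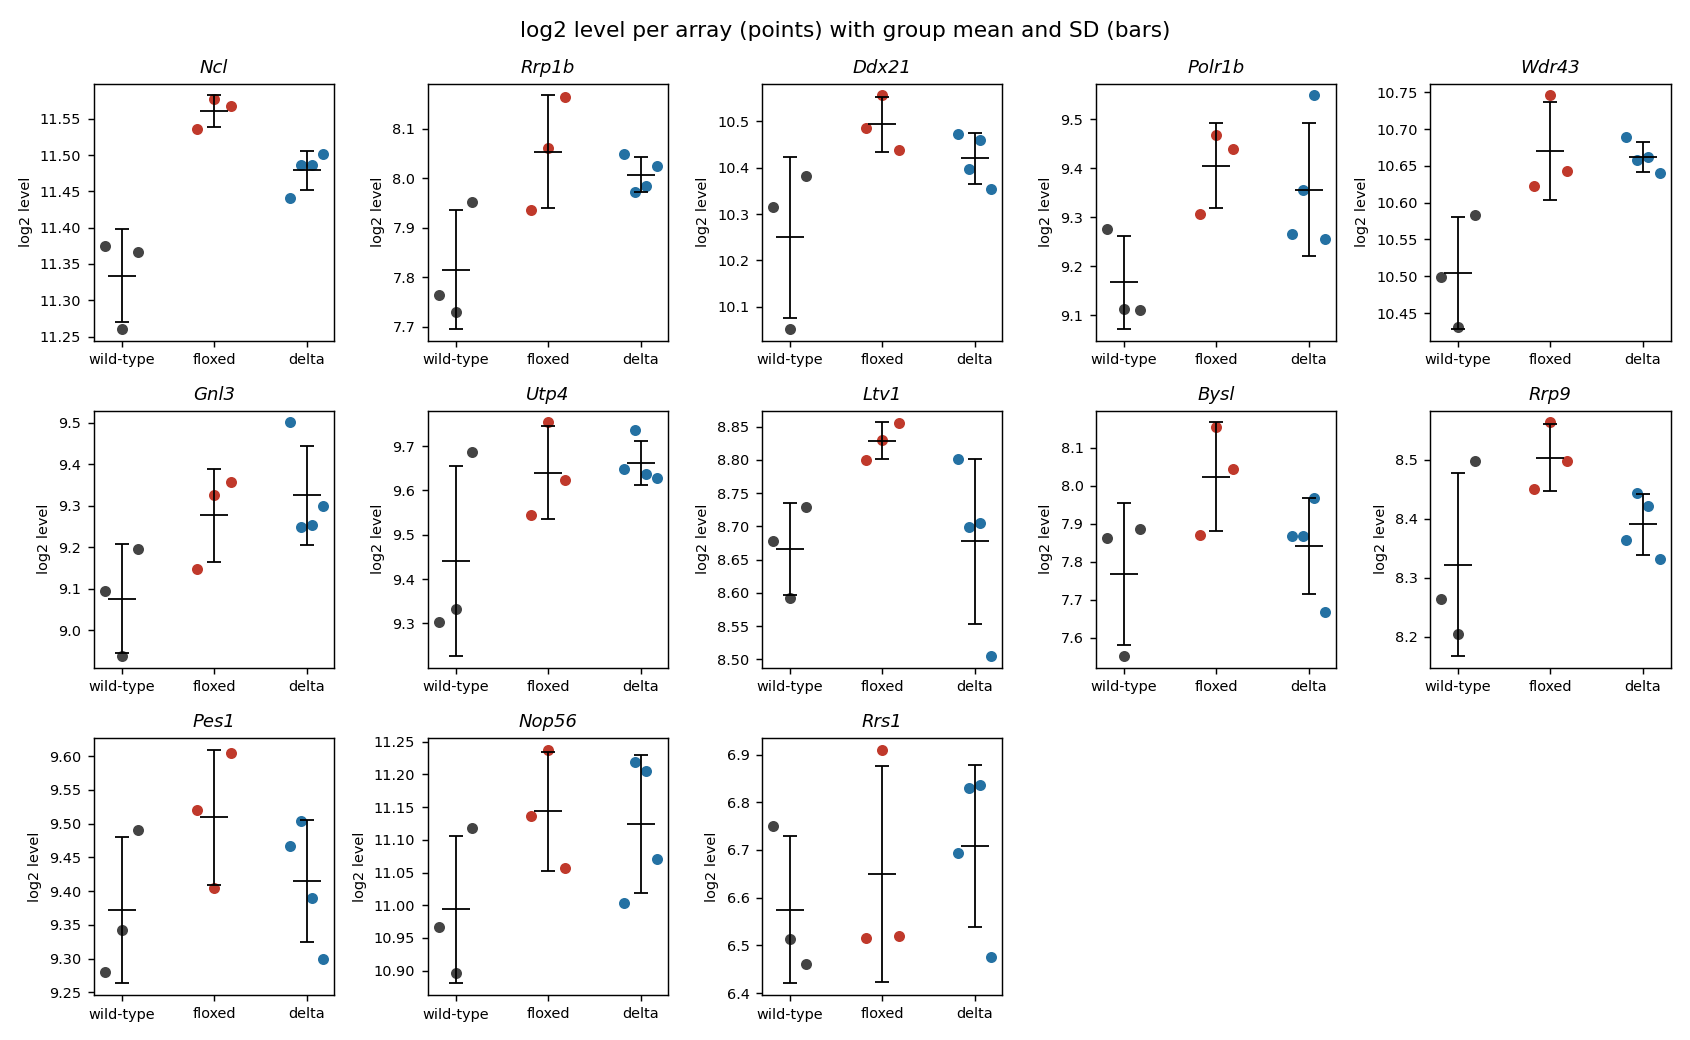
Log2 levels per array (points, vertical axis) of 13 genes by group (horizontal axis), with the group mean and SD as bars; each panel has its own axis range. Ncl and Wdr43 show all floxed and delta arrays above all wild-type arrays, and Rrs1 shows no separation.

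For 3 members a second probe set gave its own estimate. Fbl was at 0.16 with the probe set used and 0.25 with its other in floxed against wild-type, and Ddx18, a helicase of large subunit assembly, at 0.12 and 0.10. Wdr12 was at 0.068 and -0.015 there, and at -0.018 and -0.022 in delta against wild-type. Probe sets of genes with near-identical copies elsewhere may report those copies too, and which locus a probe set reads was not examined here.

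The members moved together from array to array. Each was correlated over the 10 arrays with the mean of the other members, as a description without a test, since all points share the same arrays and normalization. The median r was 0.77, from -0.48 in Nip7 to 0.96 in Dkc1, and 38 of 43 (88.4%) exceeded 0.5, where 12.4% of the other genes with a mean log2 level of at least 6 did against the module mean. After group means were removed the median was 0.72, and 37 (86%) exceeded 0.5, where 17.2% of those other genes did. The members thus also moved together once group means were removed. The module mean spread more between wild-type arrays (SD 0.110) than between floxed (0.053) or delta arrays (0.054). Agreement within floxed or delta arrays alone was not examined. Of 109 other ribosome biogenesis genes, described below, 50.5% exceeded 0.5 against the module mean over the 10 arrays, and 58.7% did within groups. Without wild-type 1 and 2, the arrays farthest from the median of the module mean, the median r of the members was 0.52. Then 22 of 43 members (51.2%) exceeded 0.5, where 10.7% of all other genes did, dim ones included. Over the 10 arrays 10.3% of all other genes did. Part of the agreement of the members thus rests on wild-type 1 and 2.

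**Figure D4:**
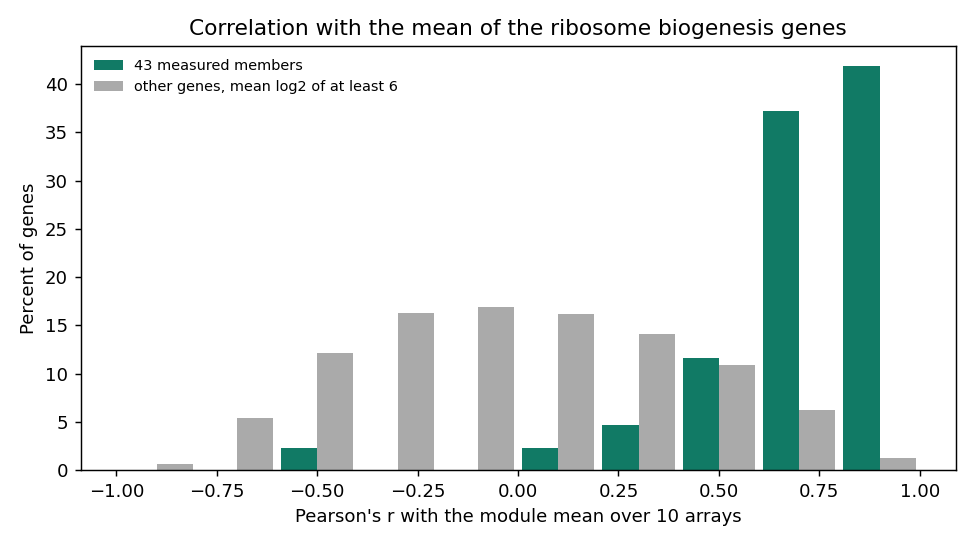
Percent of genes (vertical axis) by Pearson's r with the module mean over 10 arrays (horizontal axis, bins of 0.2), for the 43 members (green) and the other genes with a mean log2 level of at least 6 (grey). Members pile up above 0.6, while the other genes spread around 0.

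Other ribosome biogenesis genes, a list of 118 symbols outside the members of which 109 were measured, leaned the same way by smaller amounts. In limma 0 of 109 passed the threshold in any comparison, with 9 higher and 0 lower at an unadjusted p under 0.05 for floxed and 4 higher and 1 lower for delta, each against wild-type, and 0 between the transgenic groups. Of all genes, 6.14% were higher and 6.63% lower at that level for floxed, and 3.46% and 4.44% for delta. The higher counts thus lie near the background, while the lower counts lie below it. Between the transgenic groups 3.22% of all genes were higher and 3.2% lower. In that order of comparisons the median changes were 0.046, 0.031 and -0.025. Where 41.9%, 43.6% and 52.1% of all genes were above 0, so were 80, 73 and 37 of the 109. By array their mean deviation was -0.040, -0.097 and 0.053 in wild-type 1, 2 and 3, -0.026, 0.031 and 0.076 in floxed 1, 2 and 3, and -0.024, 0.038, 0.016 and -0.028 in delta 1, 2, 3 and 4. Wild-type 2 was again lowest, and wild-type 3 exceeded wild-type 2 in 97 of 109 genes. The smallest p-values were those of Pwp1 at 0.26 and Pinx1 at 0.23 in floxed against wild-type (limma adjusted p = 0.252 and 0.289), and of Fcf1 at -0.26 and Tsr2 at 0.31 in delta against wild-type (adjusted p = 0.387 and 0.437).

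**Figure D5:**
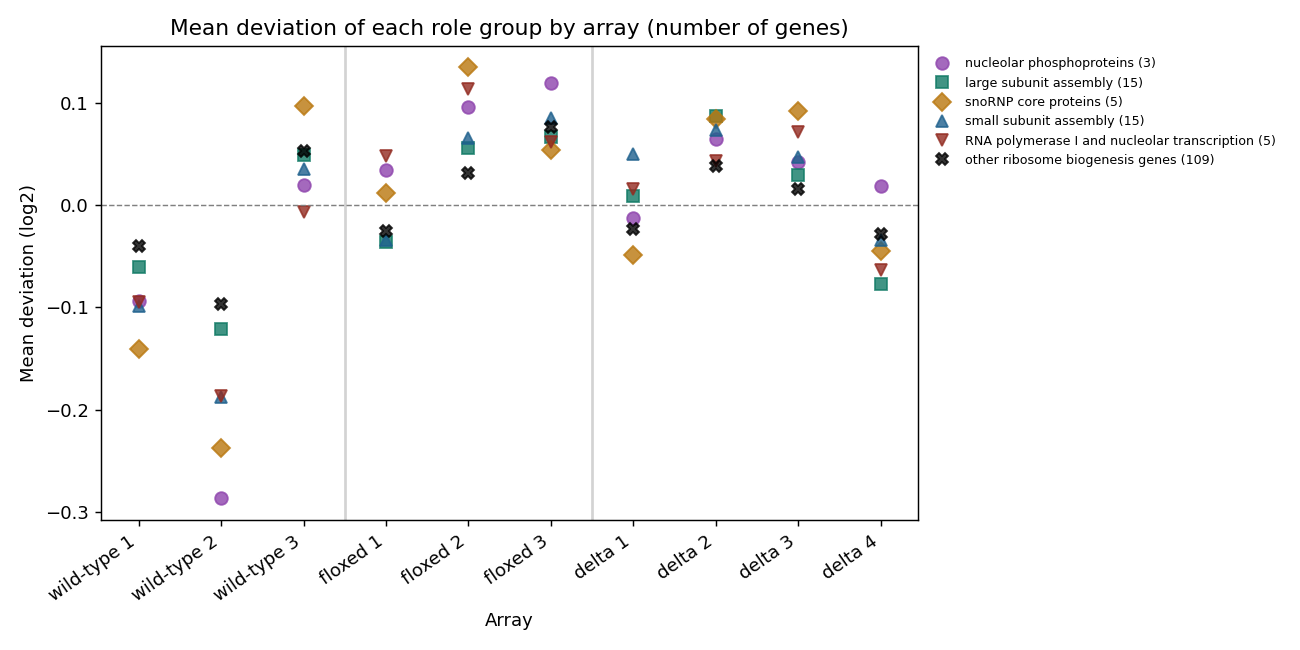
Mean deviation on the log2 scale (vertical axis) of each role group and of 109 other ribosome biogenesis genes in the 10 arrays (horizontal axis; grey lines part wild-type, floxed and delta). Wild-type 2 is lowest in every set shown, from -0.287 for the nucleolar phosphoproteins to -0.097 for the other ribosome biogenesis genes.

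Myc, whose product drives many of these genes, had log2 levels of 10.24, 9.87 and 10.63 in wild-type, 10.88, 10.99 and 10.76 in floxed, and 11.81, 10.71, 10.83 and 11.23 in delta arrays. Its changes of 0.63 and 0.90 against wild-type did not pass in limma (adjusted p = 0.330 and 0.293), although every floxed and delta array exceeded every wild-type array. Myc was lowest in wild-type 2 and wild-type 1, the arrays with the lowest module means, -0.177 and -0.090. Delta 1 and delta 4 were highest for Myc, and their module means, 0.016 and -0.050, were the lowest of the delta arrays. Whether the module follows Myc was not tested. The proliferation list, 27 measured genes of replication and mitosis, had mean deviations of -0.049 to 0.045 in wild-type, 0.026 to 0.13 in floxed and -0.090 to -0.036 in delta arrays. Every delta array lay below every floxed array in this mean, while the module means of these groups overlapped. In limma 0 of the 27 genes passed in any comparison. At an unadjusted p under 0.05, 5 were higher and 1 lower in floxed against wild-type (6.14% and 6.63% of all genes). In delta against wild-type 1 was higher and 2 lower (3.46% and 4.44%), and in delta against floxed 1 and 7 (3.22% and 3.2%). In that order 18, 8 and 5 of the 27 were above 0, where 41.9%, 43.6% and 52.1% of all genes were.

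Markers of other cell types also leaned upward in floxed against wild-type, and their part in the result was not tested. In floxed 2, the array with the highest module mean, 3 of 14 T cell markers lay above their own mean over the 10 arrays. So did 4 of 13 NK cell, 4 of 16 myeloid and 9 of 12 erythroid markers. Delta 2 and floxed 3 had nearly the same module mean, 0.075 each, and differed in these counts. In floxed 3, 11 of 14 T cell, 12 of 13 NK cell, 8 of 16 myeloid and 6 of 12 erythroid markers lay above their own mean. In delta 2 these counts were 2, 4, 6 and 7. The mean deviation of T cell markers in floxed 2, -0.087, lay within the wild-type range of -0.23 to -0.0045. Those of NK cell (0.0060), myeloid (0.030) and erythroid markers (0.28) lay above all wild-type arrays, whose highest were -0.049, -0.11 and -0.027. Of 12 measured erythroid markers 10 were above 0 in floxed against wild-type, where 41.9% of all genes were. The summed intensities of the 12 were 2357 to 3353 in wild-type, 3404 to 4375 in floxed and 1976 to 3292 in delta arrays. Of 14 T cell markers 13 were above 0, with sums of 4185 to 4522, 4439 to 5028 and 4118 to 5043. The T cell sums rest mostly on Cd2, at log2 levels of 11.40 to 11.83, where no other T cell marker exceeded 8.75. They therefore say little about the other T cell markers. Of 13 NK cell markers 10 were above 0, with sums of 755 to 880, 1205 to 1522 and 799 to 1242. Of 16 myeloid markers 10 were above 0, with sums of 1915 to 2077, 2487 to 2932 and 2181 to 3441. None of the markers in these 4 lists passed in limma in that comparison. At an unadjusted p under 0.05, 7 erythroid, 6 T cell, 4 NK cell and 3 myeloid markers were higher and 1 myeloid marker lower. Of all genes, 6.14% were higher and 6.63% lower at that level. The array intensities have no true 0, so defining markers such as Klre1, at log2 levels of 3.89 to 4.11, could only be called dim.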

How the data were processed

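The authors deposited 1 intensity per probe set and array, made by RMA per the submitters' processing notes; for its version, software and annotation build, nothing is given in the sources used here. The deposited intensity lies on a linear scale (4.46 to 26808), so log2 was taken. Of 34760 probe sets, 21640 carry 1 gene symbol, 1321 several and 11799 none. Probe sets with 1 symbol were kept, and for 954 genes with several the one with the highest mean was used. Changes come from limma 3.58.1 in R 4.3.3, with a mean per group over all 10 arrays, eBayes (prior 4.32, total 11.3 degrees of freedom), two-sided tests and Benjamini-Hochberg adjustment over 19937 genes at 0.05. The code was tested on simulated data. The number of arrays limits the precision.

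Members and lists were chosen with earlier results of these data known. Per-array values are given for the 5 members with the smallest p in each comparison and the 2 brightest and 2 dimmest probe sets; Npm1, Nip7 and others named as values were added after their values were seen. Alternatives were another normalization, a filter at a mean log2 of 6, array weights, the variance prior, how probe sets make a gene, which groups enter the fit, a replicate block, sex pattern and leaving out each array. Promoter windows are RefSeq's (GRCm38.p6).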

Additional observations from a re-analysis of the deposited data

Results flagged for a closer look

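In the 4 delta arrays, 49 sets of values (each member and the means of the module and its role groups) were examined for an array far from the others, and 2 stood out, close to the 1 in 20 that chance gives. Nop16, a factor of large subunit assembly, was at 9.46 in delta 4 and at 9.81 to 9.84 in the other delta arrays. Bop1, of the PeBoW complex, was at 9.88 in delta 2 and at 9.71 to 9.73 in the others. Both are given as values only.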

How the results depend on the processing

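Under all 21 alternatives 0 of 43 members passed in each of the 3 comparisons in limma, and the median log2 change of the members kept its sign against wild-type. It ranged from 0.078 to 0.18 in floxed and from 0.062 to 0.16 in delta against wild-type, and in delta against floxed from -0.042 to 0.00047. Counts of members with an unadjusted p under 0.05 moved. In floxed against wild-type the 8 became 15 with arrays centred on their medians, 4 with sex as a covariate (a sex effect taken from delta 1 alone), and 2 to 21 when each array was left out in turn. In delta against wild-type the 7 became 11 with array weights, 4 with the replicate block, and 1 to 20 with an array left out. In delta against floxed the 0 became 1 with arrays centred on their medians and 0 to 1 with an array left out. Pes1 in delta against floxed turned from -0.09 to 0.0100 with floxed 2 as the sole floxed array. The cause of these moves was not tested.

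Counts of all genes called moved more. In floxed against wild-type the 110 became 178 with centred arrays, 169 without dim genes, 208 with array weights, 193 with only the 2 groups, 188 with the replicate block, 2 with sex as a covariate, 6 with floxed 2 alone and 18 to 240 with an array left out. In delta against wild-type the 15 became 3 with centred arrays or sex as a covariate, 9 with trend and robust priors, 6 with the replicate block, and 0 in limma with every probe set kept, only the 2 groups or floxed 2 alone (1755, 1744 and 1744 genes at an unadjusted p under 0.05), and 0 to 23 with an array left out. In delta against floxed the 1 became 3 with trend and robust priors, 2 with only the 2 groups or the replicate block, and 1 to 10 with an array left out.

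The labels do not say whether replicate numbers pair the samples, and deviations of same-numbered arrays correlated at -0.083 to 0.12. No pairing was thus seen, though such correlations cannot exclude a shared batch. With the replicate block the members' median change was 0.12, 0.13 and 0.00047 in the 3 comparisons.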

Other observations

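Some members also carry small nucleolar RNAs (snoRNAs) inside their genes. By the gene table of RefSeq, 7 of the 44 listed genes (15.9%) span at least 1 annotated snoRNA gene, against 1.7% of all protein-coding genes, with 19 snoRNA genes in Ncl, Nop56, Nop58, Gnl3, Dkc1, Tsr1 and Wdr43. The table gives no strand, and 4 of the 19 had a probe set with a single symbol. Snora75 and Snord82 in Ncl were at -0.030 and 0.029 (log2) in floxed against wild-type (limma adjusted p = 0.958 and 0.928), where Ncl itself was at 0.23. In delta against wild-type Snora75 was at 0.29 (SE 0.14, adjusted p = 0.685) and Snord82 at 0.079, where Ncl was at 0.14. Snord57 in Nop56 was at -0.075 (adjusted p = 0.692), where Nop56 was at 0.15.

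Snord53, inside Wdr43, fell into separate levels that did not follow the groups, and it was singled out after its values were seen. Its log2 level (probe set 10446713) was 11.28, 11.81 and 12.15 in wild-type 1, 2 and 3, 11.68, 9.82 and 11.68 in floxed 1, 2 and 3, and 11.79, 10.10, 9.97 and 9.92 in delta 1, 2, 3 and 4. Floxed 2 and delta 2, 3 and 4 were thus at 9.82 to 10.10 and the other 6 arrays at 11.28 to 12.15, while Wdr43 stayed between 10.43 and 10.75 in all 10. Its change in limma was -0.69 in floxed and -1.30 in delta against wild-type (SE 0.55 and 0.52, adjusted p = 0.650 and 0.547).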
